A study of Homo sapiens with 15 samples.

Results

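The 49 genes described here act in mitosis: cyclins and other factors of mitotic entry, mitotic kinases, the chromosomal passenger complex, the spindle checkpoint, the centromere and kinetochore, anaphase control, condensin, and the spindle and cytokinesis. They were chosen by name for these roles, and each matched 1 of the 57736 genes in the table. All 49 were tested. RNA came from IMR90 human fetal lung fibroblasts, in 5 groups of 3 libraries. R298P cells, wild-type cells and knockdown cells all expressed RAS from a retrovirus and received siRNA against METTL14. They differed in the lentivirus that followed, which carried METTL14 with the R298P substitution in R298P cells, wild-type METTL14 in wild-type cells and, as the labels say, vector in knockdown cells. SiControl RAS cells expressed RAS and received a non-targeting siRNA, and control cells carried the empty retrovirus with that same siRNA. Transfection began on day 4 after the retrovirus, was repeated on the next day with the lentivirus, and cells were collected 48 hours after that. The sample titles call these treatments knockout and knock-in, but the protocols describe transient siRNA and lentiviral expression, and the protocols are followed. The RAS isoform, the promoter of the lentivirus and any lentiviral vector in siControl RAS and control cells are not stated in the sources used.

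Mitosis starts when cyclins A and B activate CDK1, and kinases of the polo and aurora families then build the spindle. Kinetochores assemble on centromeric chromatin and hold the microtubules, while the spindle checkpoint keeps the anaphase-promoting complex inactive until every chromosome is attached. Many of these genes are transcribed late in the cell cycle through promoter elements bound by MuvB complexes, which repress them in arrested cells in the form called DREAM and activate them with B-MYB and FOXM1 in dividing cells. Oncogenic RAS is known to stop the division of fibroblasts (senescence), and METTL14 works with METTL3 as the RNA methyltransferase for N6-methyladenosine.

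Late cell cycle promoters are known for the cell cycle homology region (CHR, letters TTTGAA), the element that MuvB binds, and for CCAAT boxes bound by NF-Y. RefSeq promoter windows (GRCh38.p14, 250 bases before the transcription start and 50 after it) were found for 39 of the 49 genes. No window was matched for FOXM1, CENPM, BUB3, AURKA, TROAP, KNL1, BIRC5, UBE2C, TPX2 and TTK. TTTGAA on either strand was present in 27 of the 39 windows (69.2%), against 15.4% of the 27305 RefSeq windows and 9.73% of the 10049 windows of tested genes. As examples, 30-base stretches around it are given 5′ to 3′ on the gene's strand for 1 gene of each role, picked after positions were known. Each had the highest control level among the genes of its role with the element in the 50 bases before the start. In each stretch 1 element is in capitals. In NDC80 it reads TTCAAA, the same letters on the other strand. In ANLN, TTCAAA also stands directly before the capitals, in lower case.
CCNB2 (chr15:59105105-59105134, GRCh38.p14, plus strand): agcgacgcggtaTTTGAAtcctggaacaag
PLK1 (chr16:23678848-23678877, GRCh38.p14, plus strand): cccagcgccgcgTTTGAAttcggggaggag
CDCA8 (chr1:37692481-37692510, GRCh38.p14, plus strand): gtgactgtggagTTTGAAttgggtggcggt
BUB1B (chr15:40161034-40161063, GRCh38.p14, plus strand): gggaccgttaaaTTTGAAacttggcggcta
CENPA (chr2:26786026-26786055, GRCh38.p14, plus strand): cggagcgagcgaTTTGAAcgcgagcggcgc
NDC80 (chr18:2571542-2571571, GRCh38.p14, plus strand): ccggcggagaatTTCAAAttcgaacggctt
ESPL1 (chr12:53268256-53268285, GRCh38.p14, plus strand): cagccgcggataTTTGAAaggagggtctgg
MKI67 (chr10:128126435-128126464, GRCh38.p14, minus strand): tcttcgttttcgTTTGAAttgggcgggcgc
ANLN (chr7:36389830-36389859, GRCh38.p14, plus strand): ctgaaattcaaaTTTGAAcggctgcagagg
In these 9 windows the first base in capitals lay 3 to 31 bases before the RefSeq start. Only elements within 50 bases before the start could be picked, so this nearness was set by the choice. Across the genes, 22 of 39 (56.4%) had TTTGAA within 50 bases of the start, a distance chosen after the positions were seen, against 4.67% of all windows and 2.69% of windows of tested genes.

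CCAAT was present on either strand in 29 of 39 windows (74.4%), against 35.7% of all windows and 37.0% of windows of tested genes. Both elements were present in 20 of 39 (51.3%), against 6.08% and 4.14%. The E2F letters TTTCCCGC or TTTGGCGC were found in 2 of 39 windows (5.13%), against 2.31% and 3.66%. The 250 bases before the start of MKI67 (chr10:128126424-128126673, GRCh38.p14, minus strand) hold TTTGAA at 2 places and the CCAAT box, read here as ATTGG, at 2 places, all in capitals. The last pair overlap by a base.
MKI67: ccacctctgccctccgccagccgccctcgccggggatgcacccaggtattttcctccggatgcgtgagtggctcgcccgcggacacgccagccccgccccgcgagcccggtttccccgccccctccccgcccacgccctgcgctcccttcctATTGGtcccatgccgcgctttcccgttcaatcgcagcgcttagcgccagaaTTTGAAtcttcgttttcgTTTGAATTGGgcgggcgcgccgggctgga
A match describes the letters of a window and does not show that a factor binds there. For 37 of the 39 genes the bases after the RefSeq start stood in a GENCODE transcript of the gene, but not for MKI67 and NCAPH. Distances here rest on the RefSeq start.

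**Figure D1:**
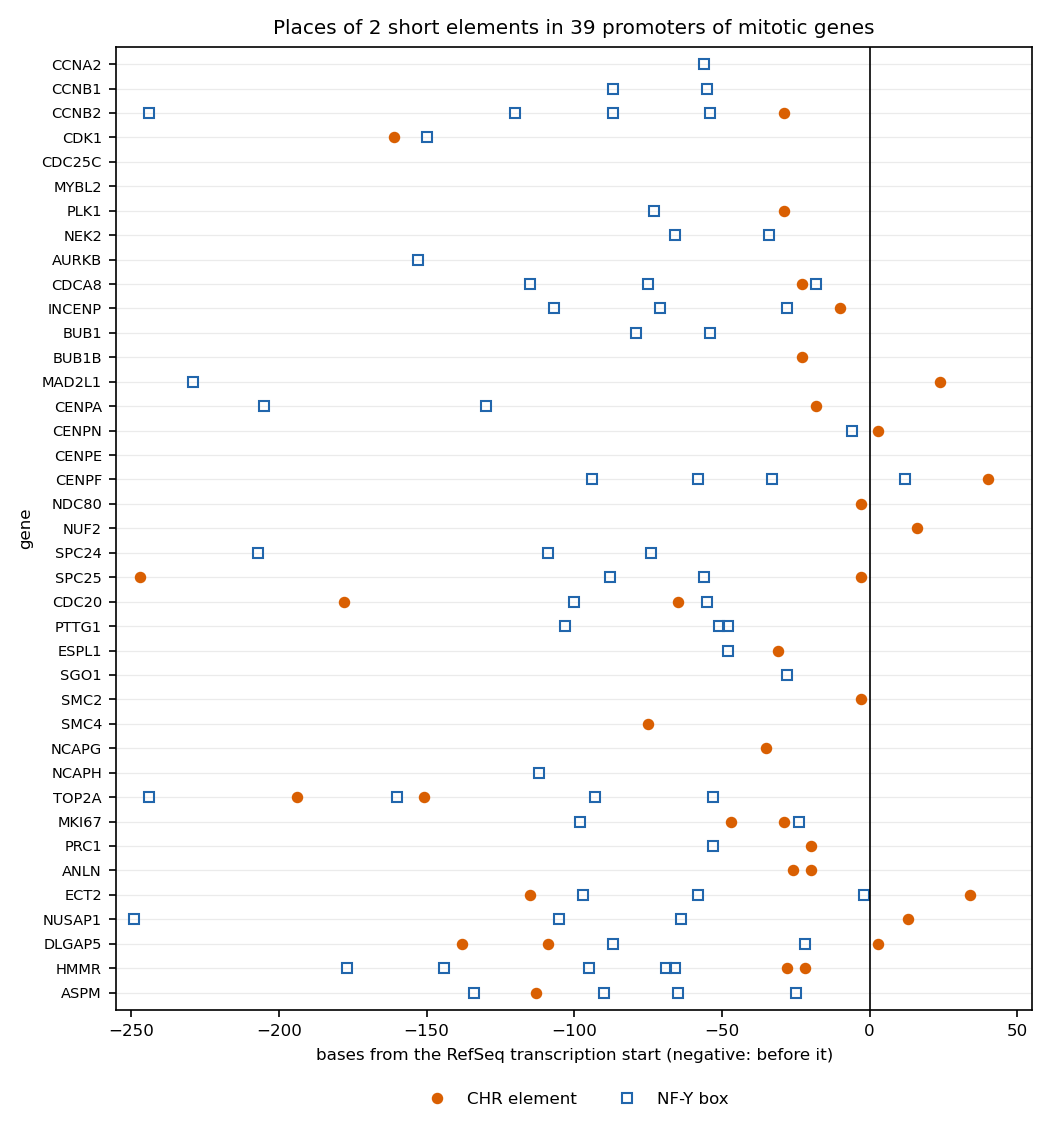
Places of TTTGAA (filled circles) and CCAAT (open squares) on either strand in the RefSeq windows of 39 mitotic genes, as bases from the transcription start (0). The TTTGAA circles gather close to the start, within 50 bases of it in 22 genes, and the CCAAT squares spread farther upstream.

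Libraries held 4917661 to 7763084 counts, so that 1 count stood for 0.136 to 0.203 CPM, the count scaled to library size times its TMM factor. Levels are TMM-normalised CPM. A call means a p under 0.05 in edgeR's quasi-likelihood test, two-sided, after Benjamini-Hochberg adjustment over the 13516 genes tested. Whether libraries of a group stem from separate cultures is not stated in the labels, so the spread behind the p-values can be technical. METTL14 had 892, 907 and 1038 CPM in R298P libraries, 508, 564 and 564 CPM in wild-type libraries, 9.35, 4.94 and 3.94 CPM in knockdown libraries, 26.1, 19.3 and 20.5 CPM in siControl RAS libraries, and 19.1, 21.2 and 23.3 CPM in control libraries. Replicate 1 of the knockdown group, with the highest METTL14 of its group, stood apart on the third principal component (5.52% of the variance). Of the listed markers, all 10 of fibroblasts were detected, while CDH1, KRT5 and KRT14 of the 10 epithelial, CDH5 and ERG of the 7 endothelial and CD3E, ITGAM and LYZ among the leukocyte markers were at 0 in all 15 libraries.

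The 49 genes were lower in siControl RAS cells than in control cells without exception. Their summed level was 582 to 614 CPM in siControl RAS libraries, against 5267 to 5592 CPM in control libraries, a ratio of means of 11.0%. All 49 were called lower and none higher, where 21.9% of all tested genes were called lower and 24.0% higher. In none of the 49 did libraries of the 2 groups overlap, a count not given for all tested genes. CENPA and SPC25 did not pass the filter for low counts in the 12 RAS libraries alone, so they were tested because of their control level. The median fitted change of the 49 genes was -4.10 on the log2 scale. The median gene kept 5.65% of its control level, 39 genes kept under 10%, and ECT2 (62.4%) and SMC2 (60.9%) kept the most. In bulk RNA, fewer cells in mitosis and less RNA of these genes per cell cannot be told apart.

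Knockdown cells, which received siRNA against METTL14 and the vector lentivirus, had a partial rise over siControl RAS cells. No lentivirus is stated for siControl RAS cells, so effects of the siRNA and of the lentivirus cannot be told apart here. A rise with the knockdown means a higher level in this comparison. The summed level was 911 to 930 CPM in knockdown libraries, against 582 to 614 CPM in siControl RAS libraries, 1.53 times as high. Of the 49 genes 25 rose, none fell and 24 were not called, where 7.47% of all tested genes were called higher and 8.06% lower. NEK2, CENPA, CENPM, SPC24, SPC25 and ESPL1 did not pass the filter for low counts in the 6 siControl RAS and knockdown libraries alone. Libraries of other groups therefore brought them into the test, and NEK2 and CENPA are among the 25. TROAP, also called, had no counts in siControl RAS libraries and passed there only through the knockdown group. The median log2 change was 0.92, and it stayed there with CENPA and TROAP, which had at most 1 count in siControl RAS cells, set at the ratio or bound their counts allow. In 24 of the 25 called genes the knockdown libraries all lay above the siControl RAS libraries, NEK2 being the exception. This count, too, is not given for all tested genes. The level remained far under control: all 49 genes were lower in knockdown than in control cells, where 16.7% of all tested genes were called lower and 19.2% higher, and the median gene had 12.5% of its control level. When knockdown replicate 1, which stood apart, was left out, 25 of the 49 were again called higher, with NEK2 and BIRC5 losing the call and CDK1 and NUF2 gaining it.

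**Figure D2:**
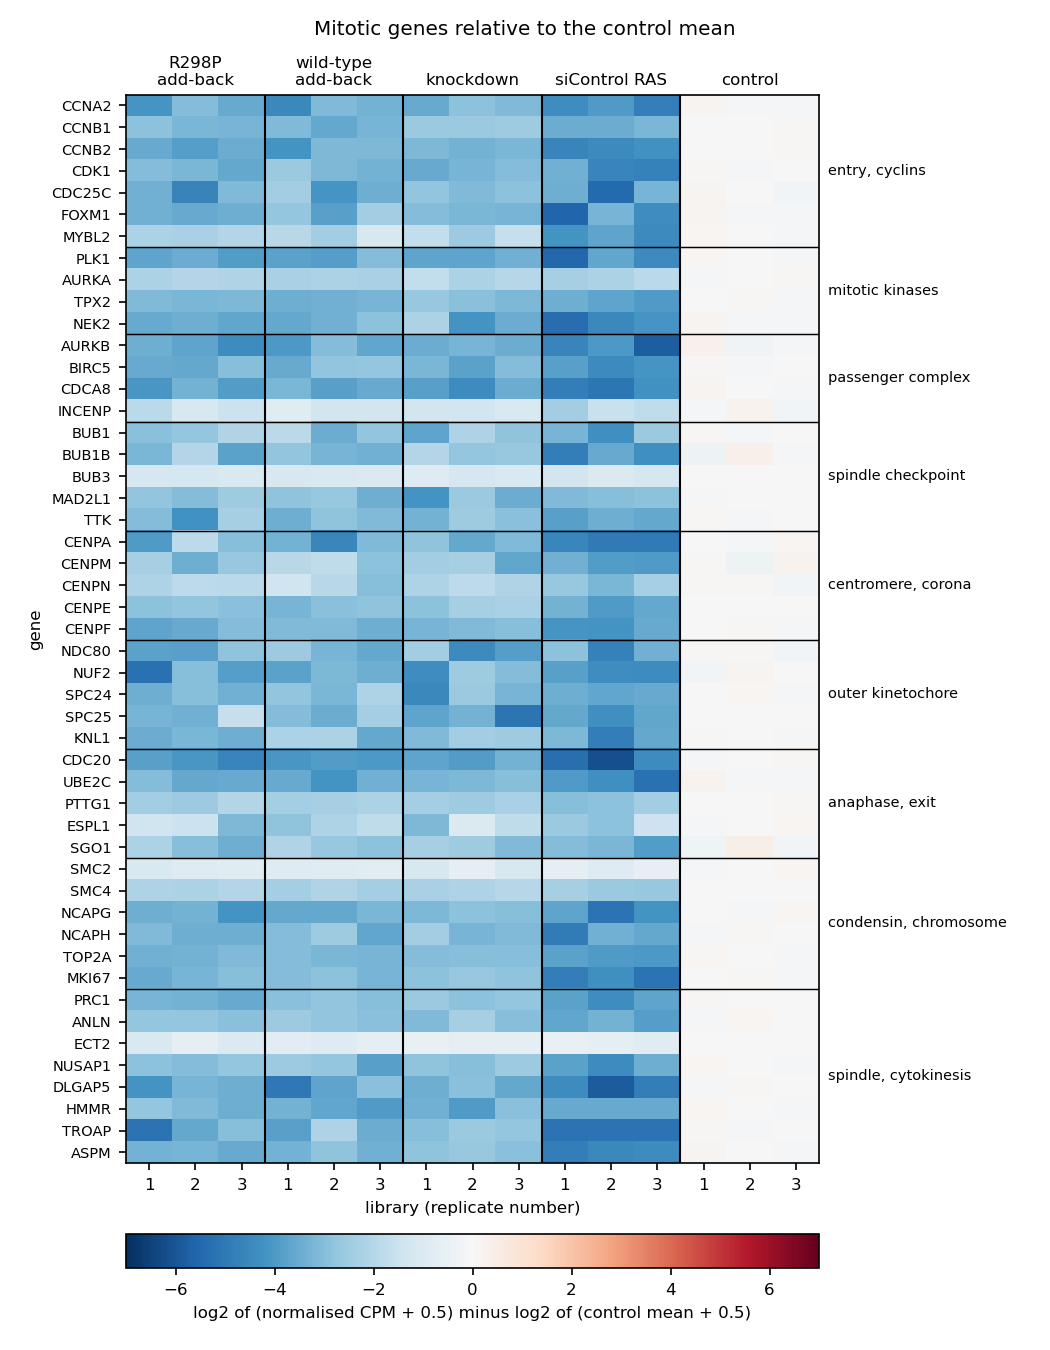
Level of each of the 49 genes (rows, grouped by role) in each library (columns) as log2 of normalised CPM + 0.5 minus log2 of the control mean + 0.5. The siControl RAS columns are the darkest blue, the knockdown and add-back columns are paler for many genes, and BUB3, SMC2 and ECT2 stay pale in every RAS group.

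The summed levels of the 4 lists of cell type markers lay apart between these groups, except that the leukocyte sums of knockdown and control libraries overlapped. The sums were not tested. The epithelial sum was 84.7 to 95.9 CPM in knockdown libraries, 52.6 to 70.2 CPM in siControl RAS libraries and 137.5 to 151.3 CPM in control libraries. Of its 10 markers 7 were tested, and they went both ways. The keratins KRT18 and KRT19 were called lower for RAS and higher for the knockdown, the claudin gene CLDN7 and the transcription factor gene ELF3 higher for RAS and lower for the knockdown, and CLDN4 lower for RAS without a call for the knockdown. The fibroblast sum was 18280 to 19110 CPM in knockdown libraries, 22220 to 23260 CPM in siControl RAS libraries and 10610 to 10790 CPM in control libraries. Of these 10 markers 8 were called higher and 2 lower for RAS, and 2 higher and 6 lower for the knockdown; the 2 that went against the sum both times were VIM, which encodes vimentin, and THY1. The endothelial sum was 39.7 to 43.5 CPM in knockdown libraries, 31.7 to 36.7 CPM in siControl RAS libraries and 14.4 to 24.3 CPM in control libraries, with both tested markers, TEK and ROBO4, called higher for RAS and neither called for the knockdown. The leukocyte sum was 6.02 to 14.3 CPM in knockdown libraries, 14.4 to 23.9 CPM in siControl RAS libraries and 2.97 to 7.97 CPM in control libraries, and CD68, the 1 marker tested, was called higher for RAS and not called for the knockdown. The part of these markers in the change of the mitotic genes was not tested.

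All 7 genes of mitotic entry fell with RAS, and 4 rose with the knockdown: CCNA2, CCNB1, CCNB2 and MYBL2. MYBL2, which encodes B-MYB, had 14.8, 8.03 and 15.8 CPM in knockdown libraries, 2.32, 3.37 and 1.78 CPM in siControl RAS libraries and 55.6, 49.1 and 44.4 CPM in control libraries. Every knockdown library lay above every siControl RAS library and far below control, and MYBL2 had the largest rise of the role, 2.36 ± 0.34 (log2 fold change ± SE, edgeR adjusted p = 3.47e-06). It reached 25.9% of its control level in knockdown cells, against 5.01% in siControl RAS cells. CCNB1, the main cyclin partner of CDK1, had 22.6, 22.4 and 24.5 CPM in knockdown libraries, 12.1, 11.99 and 14.8 CPM in siControl RAS libraries and 137, 134 and 147 CPM in control libraries. The groups did not overlap, and the rise of CCNB1 was smaller, 0.84 ± 0.17 (edgeR adjusted p = 0.000321). CCNA2, the cyclin of S and G2 phase, had 3.66, 6.02 and 5.25 CPM in knockdown libraries, 1.91, 2.62 and 1.25 CPM in siControl RAS libraries and 55.5, 42.99 and 45.1 CPM in control libraries, again with no overlap and a knockdown change of 1.38 ± 0.39 (edgeR adjusted p = 0.0122). Its call ended without siControl RAS replicate 3 (1.16, edgeR adjusted p = 0.0688) or knockdown replicate 2 (1.22, edgeR adjusted p = 0.0575). CCNB2, the other B cyclin, had 5.89, 5.09 and 5.75 CPM in knockdown libraries and 1.77, 2.06 and 2.495 CPM in siControl RAS libraries, against 54.1, 55.2 and 58.4 CPM in control libraries. CCNB2 had the largest RAS fall of the role, -4.73 ± 0.29 (edgeR adjusted p = 1.19e-15), and also rose with the knockdown (1.40 ± 0.32).

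CDK1, FOXM1 and CDC25C were not called for the knockdown. The mitotic kinase CDK1 had 5.28, 6.48 and 7.71 CPM in knockdown libraries, 5.99, 2.25 and 1.96 CPM in siControl RAS libraries and 69.2, 63.4 and 65.4 CPM in control libraries. Replicate 1 of siControl RAS lay inside the knockdown range, so the groups overlapped, and the change was 0.88 with a 95% interval of 0.17 to 1.59 (edgeR adjusted p = 0.0584). FOXM1, the transcription factor that works with B-MYB at late cell cycle genes, had 3.86, 3.395 and 3.28 CPM in knockdown libraries, 0.272, 3.19 and 1.25 CPM in siControl RAS libraries and 40.9, 32.8 and 31.6 CPM in control libraries. Knockdown and siControl RAS libraries did not overlap, but the siControl RAS libraries were spread widely, and the change was 1.23 (95% interval 0.15 to 2.32, edgeR adjusted p = 0.0876). CDC25C, the phosphatase that activates CDK1, had 2.64, 2.01 and 2.46 CPM in knockdown libraries and 1.498, 0 and 1.78 CPM in siControl RAS libraries, the fewest counts of the role. CDK1 was called without siControl RAS replicate 1 (1.63, edgeR adjusted p = 0.00103) or knockdown replicate 1 (0.99, edgeR adjusted p = 0.0481), and FOXM1 without siControl RAS replicate 2 (2.27, edgeR adjusted p = 0.0038). The RAS falls of CDK1 and FOXM1, -4.21 and -4.55, were -4.96 and -5.59 without those siControl RAS libraries.

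**Figure D3:**
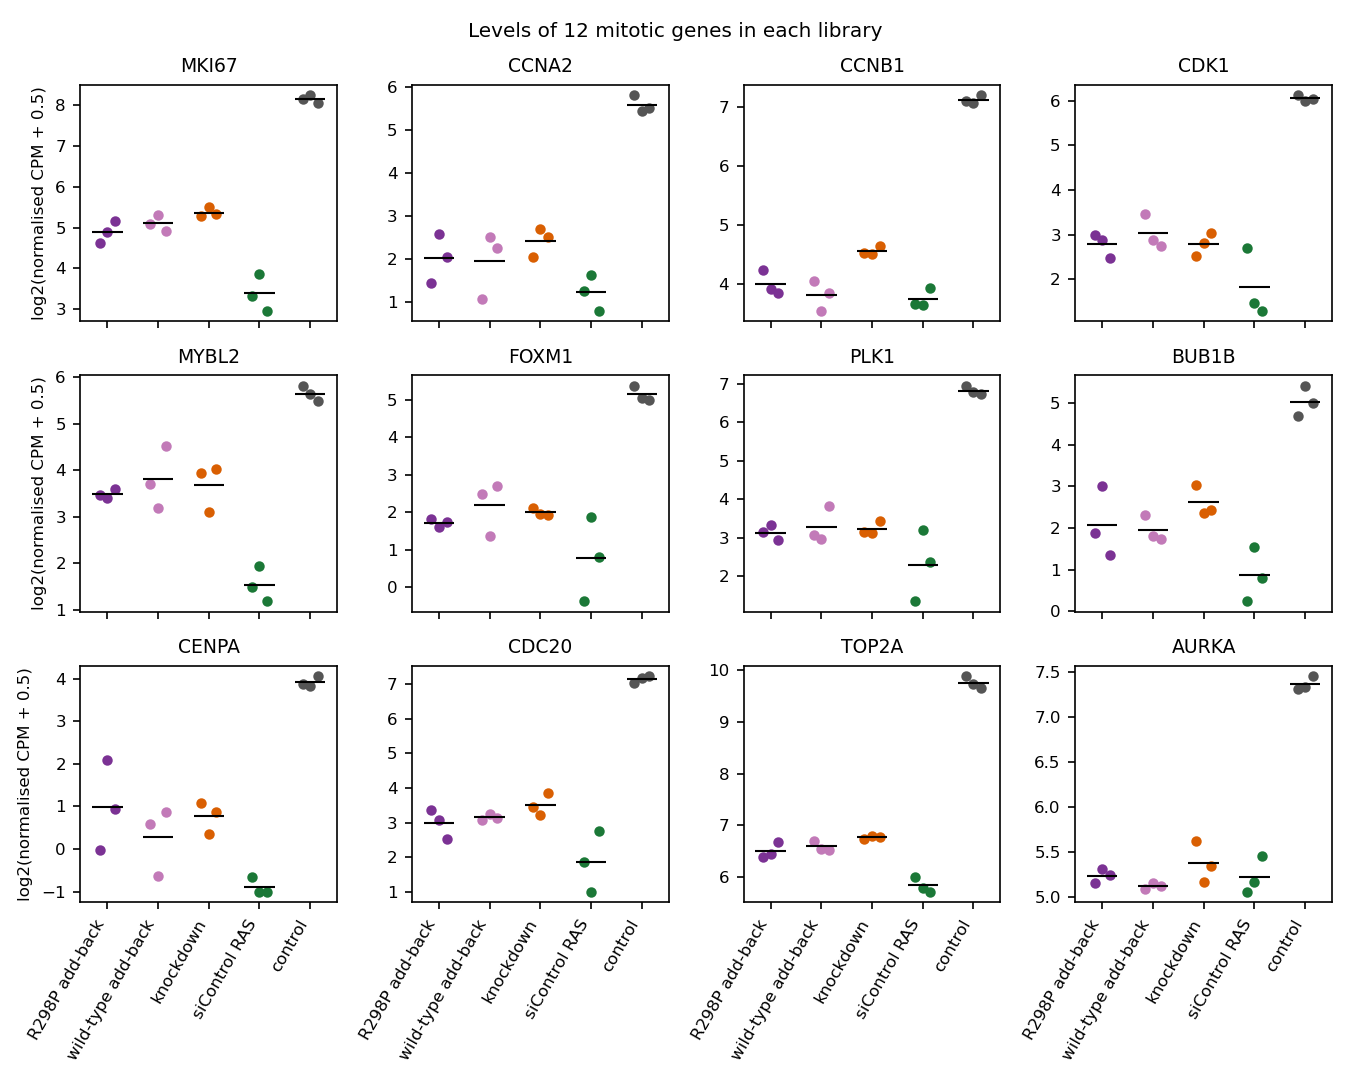
Levels of 12 of the genes, chosen after their values were seen, as log2 of normalised CPM + 0.5 in each library (points) with the group mean (line); each panel has its own vertical scale. Control libraries stand at the top of every panel, and for MKI67, MYBL2, BUB1B and TOP2A all knockdown libraries stand above the siControl RAS libraries, while AURKA shows no such step.

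Among the mitotic kinases, TPX2 and NEK2 rose with the knockdown, and PLK1 and AURKA were not called. NEK2, a kinase that parts the centrosomes, had 7.52, 1.54 and 2.79 CPM in knockdown libraries, 0.409, 1.12 and 1.604 CPM in siControl RAS libraries and 41.3, 34.8 and 33.1 CPM in control libraries. Replicate 1 carried most of the knockdown rise (1.91 ± 0.50, edgeR adjusted p = 0.0065), and replicate 2 lay below the highest siControl RAS library. The call of NEK2 ended without knockdown replicate 1 (1.09, edgeR adjusted p = 0.166) or siControl RAS replicate 1 (1.47, edgeR adjusted p = 0.0653). TPX2, the activator of AURKA on the spindle, had 39.6, 32.3 and 27.2 CPM in knockdown libraries and 23.3, 18.9 and 15.7 CPM in siControl RAS libraries, with no overlap and a change of 0.76 ± 0.14 (edgeR adjusted p = 0.000179). PLK1, the polo kinase of centrosome and kinetochore, had 8.33, 8.18 and 10.3 CPM in knockdown libraries, 2.04, 8.62 and 4.63 CPM in siControl RAS libraries and 123, 109 and 106 CPM in control libraries. Replicate 2 of siControl RAS lay inside the knockdown range, and the change of 0.87 (95% interval 0.12 to 1.62) did not pass (edgeR adjusted p = 0.0906). Without that library PLK1 was called (1.47, edgeR adjusted p = 0.000989), and its RAS fall of -4.52 was -5.12. AURKA, the aurora kinase of the spindle poles, had 48.8, 35.5 and 40.05 CPM in knockdown libraries, 32.8, 35.4 and 43.3 CPM in siControl RAS libraries and 157, 161 and 174 CPM in control libraries. It kept 22.7% of its control level in siControl RAS cells and 25.3% in knockdown cells.

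In the chromosomal passenger complex, which corrects wrong attachments, AURKB and BIRC5 rose and CDCA8 and INCENP were not called. AURKB, the kinase of the complex, had 7.92, 9.26 and 7.88 CPM in knockdown libraries, 3.405, 5.43 and 1.25 CPM in siControl RAS libraries and 114, 79.2 and 89.2 CPM in control libraries. The groups did not overlap, and the rise was 1.32 ± 0.36 (edgeR adjusted p = 0.0124). The call ended without siControl RAS replicate 1 (edgeR adjusted p = 0.0558) or knockdown replicate 2 (edgeR adjusted p = 0.0532). BIRC5, or survivin, which brings the complex to the centromere, had 11.4, 7.87 and 12.97 CPM in knockdown libraries and 7.49, 4.496 and 5.88 CPM in siControl RAS libraries, a change of 0.82 ± 0.25 (edgeR adjusted p = 0.0191). This call ended without siControl RAS replicate 2 or 3 (0.67 and 0.80) or knockdown replicate 1 or 3 (0.78 and 0.66). CDCA8, or borealin, had the largest RAS fall of the complex (-4.91 ± 0.29), with 2.04, 1.69 and 3.39 CPM in siControl RAS libraries against 80.8, 69.7 and 64.4 CPM in control libraries. The scaffold INCENP fell least (-1.97 ± 0.26), with 5.18, 9.93 and 8.38 CPM in siControl RAS libraries against 28.3, 36.7 and 26.3 CPM in control libraries. For the knockdown INCENP had 12.4, 11.9 and 14.1 CPM, above every siControl RAS library, but the change of 0.73 was not called (edgeR adjusted p = 0.0651). INCENP was called without siControl RAS replicate 2 (0.94), and CDCA8 (0.92 with all libraries) without siControl RAS replicate 3 (1.24) or knockdown replicate 2 (1.17).

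Of the 5 spindle checkpoint genes only BUB1B rose with the knockdown; whether it differed from the other 4 was not tested. BUB1B encodes BUBR1, which inhibits CDC20, and had 7.72, 4.63 and 4.92 CPM in knockdown libraries, 0.681, 2.44 and 1.25 CPM in siControl RAS libraries and 25.3, 42.3 and 31.8 CPM in control libraries. The libraries did not overlap between any 2 of these groups, and the knockdown change was 2.01 ± 0.46 (edgeR adjusted p = 0.00179). BUB3, the adaptor that carries BUB1 and BUBR1 to kinetochores, was well counted and had 116, 95.2 and 102 CPM in knockdown libraries, 88.5, 108 and 92.7 CPM in siControl RAS libraries and 211, 219 and 219 CPM in control libraries. Its knockdown change had a 95% interval of -0.10 to 0.33, and its RAS fall was -1.17 ± 0.09. The checkpoint kinases BUB1 and TTK had knockdown changes of 0.54 and 0.86 that were not called. MAD2L1, the checkpoint protein MAD2, had 1.22, 4.63 and 2.298 CPM in knockdown libraries and 3.13, 3.37 and 3.74 CPM in siControl RAS libraries, where 2 knockdown libraries lay below the whole siControl RAS range.

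Of the centromere and corona genes CENPA, CENPE and CENPF rose with the knockdown, and CENPM and CENPN were not called. CENPA, the histone H3 variant that marks the centromere, had 1.63, 0.772 and 1.31 CPM in knockdown libraries, 0.136, 0 and 0 CPM in siControl RAS libraries and 14.2, 13.7 and 16.1 CPM in control libraries. The 3 siControl RAS libraries held 1 count of it in all, the 3 knockdown libraries 21 and the 3 control libraries 271. The ratio of siControl RAS to control was therefore 268-fold lower, with an exact 95% interval of 47.7 to 10630, and that of knockdown to siControl RAS was 22.0-fold higher (3.53 to 908); such intervals, and the floors used for counts of 0, cover counting error only. CENPE, the kinetochore motor that moves chromosomes to the spindle equator, had 20.7, 30.7 and 32.2 CPM in knockdown libraries, 15.4, 9.37 and 12.5 CPM in siControl RAS libraries and 154, 158 and 151 CPM in control libraries, with no overlap and a knockdown change of 1.16 ± 0.18 (edgeR adjusted p = 6.1e-06). CENPF, a large protein of the kinetochore corona, had 47.95, 53.5 and 59.1 CPM in knockdown libraries and 25.9, 24.9 and 40.5 CPM in siControl RAS libraries (0.82 ± 0.19, edgeR adjusted p = 0.00596). CENPM and CENPN, both of the constitutive centromere complex, held 35 and 41 counts in all in knockdown libraries, against 14 and 24 in siControl RAS libraries; CENPM was called without knockdown replicate 3 (1.78, edgeR adjusted p = 0.0432).

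Among the 5 outer kinetochore genes KNL1 alone was called for the knockdown. KNL1, the scaffold on which checkpoint proteins gather, had 4.88, 8.18 and 7.88 CPM in knockdown libraries, 4.77, 1.12 and 3.39 CPM in siControl RAS libraries and 49.2, 46.1 and 43.1 CPM in control libraries. The lowest knockdown library lay just above the highest siControl RAS library, and the change was 1.14 ± 0.38 (edgeR adjusted p = 0.0364). The call ended without siControl RAS replicate 2 or 3 (0.77 and 1.18) or knockdown replicate 2 or 3 (1.01 and 1.05). NDC80, NUF2, SPC24 and SPC25 form the complex that grips microtubules, and all 4 fell with RAS, by -3.61, -4.39, -4.10 and -4.43. SPC25, which fell most, had 0.954, 0.375 and 0.891 CPM in siControl RAS libraries against 16.1, 17.3 and 16.6 CPM in control libraries. For the knockdown, NDC80 had a change of 0.05 (95% interval -1.21 to 1.30) and NUF2 of 1.197 (0.10 to 2.30), neither called; NUF2 was called without knockdown replicate 1 (1.56, edgeR adjusted p = 0.0115). SPC24 and SPC25 held 22 and 12 counts in knockdown libraries, against 16 and 14 in siControl RAS libraries, and neither was called (95% intervals -0.90 to 1.84 and -1.85 to 1.57).

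In anaphase control, CDC20 and UBE2C rose with the knockdown. CDC20, the activator of the anaphase-promoting complex and the target of the checkpoint, had 10.4, 8.797 and 13.9 CPM in knockdown libraries, 3.13, 1.499 and 6.24 CPM in siControl RAS libraries and 131, 145 and 149.9 CPM in control libraries. No libraries overlapped, and CDC20 both fell most of this role with RAS (-5.29 ± 0.27, edgeR adjusted p = 7.54e-15) and rose most with the knockdown (1.60 ± 0.30, edgeR adjusted p = 0.000309). UBE2C, the ubiquitin-conjugating enzyme of that complex, had 9.14, 9.88 and 10.8 CPM in knockdown libraries and 5.31, 4.12 and 1.96 CPM in siControl RAS libraries, a change of 1.36 ± 0.28 (edgeR adjusted p = 0.000479). PTTG1, or securin, had 41.6, 39.4 and 44.8 CPM in knockdown libraries and 26.97, 29.8 and 39.9 CPM in siControl RAS libraries, a change of 0.39 that just missed the call (edgeR adjusted p = 0.0506) and passed without siControl RAS replicate 3 (0.57, edgeR adjusted p = 0.0054). PTTG1 has near-identical copies in the genome, so its counts are uncertain. The protease separase, ESPL1, and the cohesin protector SGO1 were low, with changes of 0.65 and 0.90 that were not called. The RAS fall of ESPL1, -2.67 ± 0.81, was -3.57 without siControl RAS replicate 3, and its difference between knockdown and control lost its call without any 1 control library or without knockdown replicate 1 or 3.

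Of the condensin and chromosome genes SMC4, NCAPG, TOP2A and MKI67 rose with the knockdown. MKI67, which encodes the Ki-67 protein that coats mitotic chromosomes, had 38.4, 44.9 and 39.6 CPM in knockdown libraries, 9.54, 14.1 and 7.31 CPM in siControl RAS libraries and 285, 303 and 264 CPM in control libraries. No libraries overlapped, and the changes were 2.00 ± 0.17 for the knockdown and -4.79 ± 0.17 for RAS (edgeR adjusted p = 1.4e-10 and 2.27e-21). TOP2A, the topoisomerase that untangles sister chromatids, had the most counts of the 49 genes, with 105, 111 and 109 CPM in knockdown libraries, 63.6, 54.7 and 52.05 CPM in siControl RAS libraries and 942, 847 and 805 CPM in control libraries. Its rise of 0.93 ± 0.09 was measured with the smallest error of the called genes (edgeR adjusted p = 1.41e-09). The core ATPase SMC4 had 60.4, 64.2 and 73.5 CPM in knockdown libraries and 56.8, 47.96 and 44.9 CPM in siControl RAS libraries, a rise of 0.40 ± 0.11 (edgeR adjusted p = 0.00974) whose call ended without siControl RAS replicate 3 (0.33) or knockdown replicate 3 (0.32). Its partner SMC2 had 55.1, 77.6 and 56.8 CPM in knockdown libraries, 75.1, 65.01 and 82.7 CPM in siControl RAS libraries and 111, 121 and 134 CPM in control libraries, with overlap and a knockdown interval of -0.51 to 0.05. Without knockdown replicate 2, SMC2 was called lower (-0.41, edgeR adjusted p = 0.0294). Among the regulatory subunits of condensin I, NCAPG rose by 1.25 ± 0.27 (edgeR adjusted p = 0.000934), and NCAPH, with 4.47, 2.31 and 2.63 CPM in knockdown libraries and 0.409, 2.06 and 1.78 CPM in siControl RAS libraries, was not called (1.18, edgeR adjusted p = 0.0921).

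Spindle and cytokinesis genes had the largest called share of any role for the knockdown, 6 of 8: PRC1, ANLN, NUSAP1, DLGAP5, TROAP and ASPM; shares were not tested between roles. ASPM, a protein of the spindle poles, had 25.8, 28.2 and 23.1 CPM in knockdown libraries, 5.86, 7.49 and 8.199 CPM in siControl RAS libraries and 204, 178 and 162 CPM in control libraries, with no overlap and a knockdown change of 1.85 ± 0.18 (edgeR adjusted p = 9.47e-10). PRC1, which bundles the midzone microtubules, had 26.6, 21.8 and 24.8 CPM in knockdown libraries and 11.7, 7.49 and 12.1 CPM in siControl RAS libraries (1.21 ± 0.17, edgeR adjusted p = 1.24e-06). TROAP, a protein of spindle and centrosome, had 1.83, 2.47 and 2.298 CPM in knockdown libraries, no counts in siControl RAS libraries and 18.3, 16.8 and 17.6 CPM in control libraries. With a floor of 3 counts over the siControl RAS group, it was at least 107-fold lower in siControl RAS than in control cells and at least 13.6-fold higher in knockdown than in siControl RAS cells. The microtubule proteins DLGAP5 and NUSAP1 rose by 1.88 ± 0.46 and 1.05 ± 0.26, and anillin (ANLN), the scaffold of the cleavage furrow, by 0.88 ± 0.17. ECT2, the exchange factor that activates RhoA at the furrow, had 54.5, 48.6 and 48.6 CPM in knockdown libraries, 53.8, 47.6 and 43.1 CPM in siControl RAS libraries and 78.5, 76.1 and 77.02 CPM in control libraries. It had the smallest RAS fall of the 49 genes (-0.68 ± 0.13) and a knockdown interval of -0.23 to 0.36. HMMR, a microtubule-binding protein, had 4.27, 2.62 and 5.91 CPM in knockdown libraries and 3.81, 3.75 and 3.74 CPM in siControl RAS libraries, with overlap (0.17, edgeR adjusted p = 0.8).

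**Figure D4:**
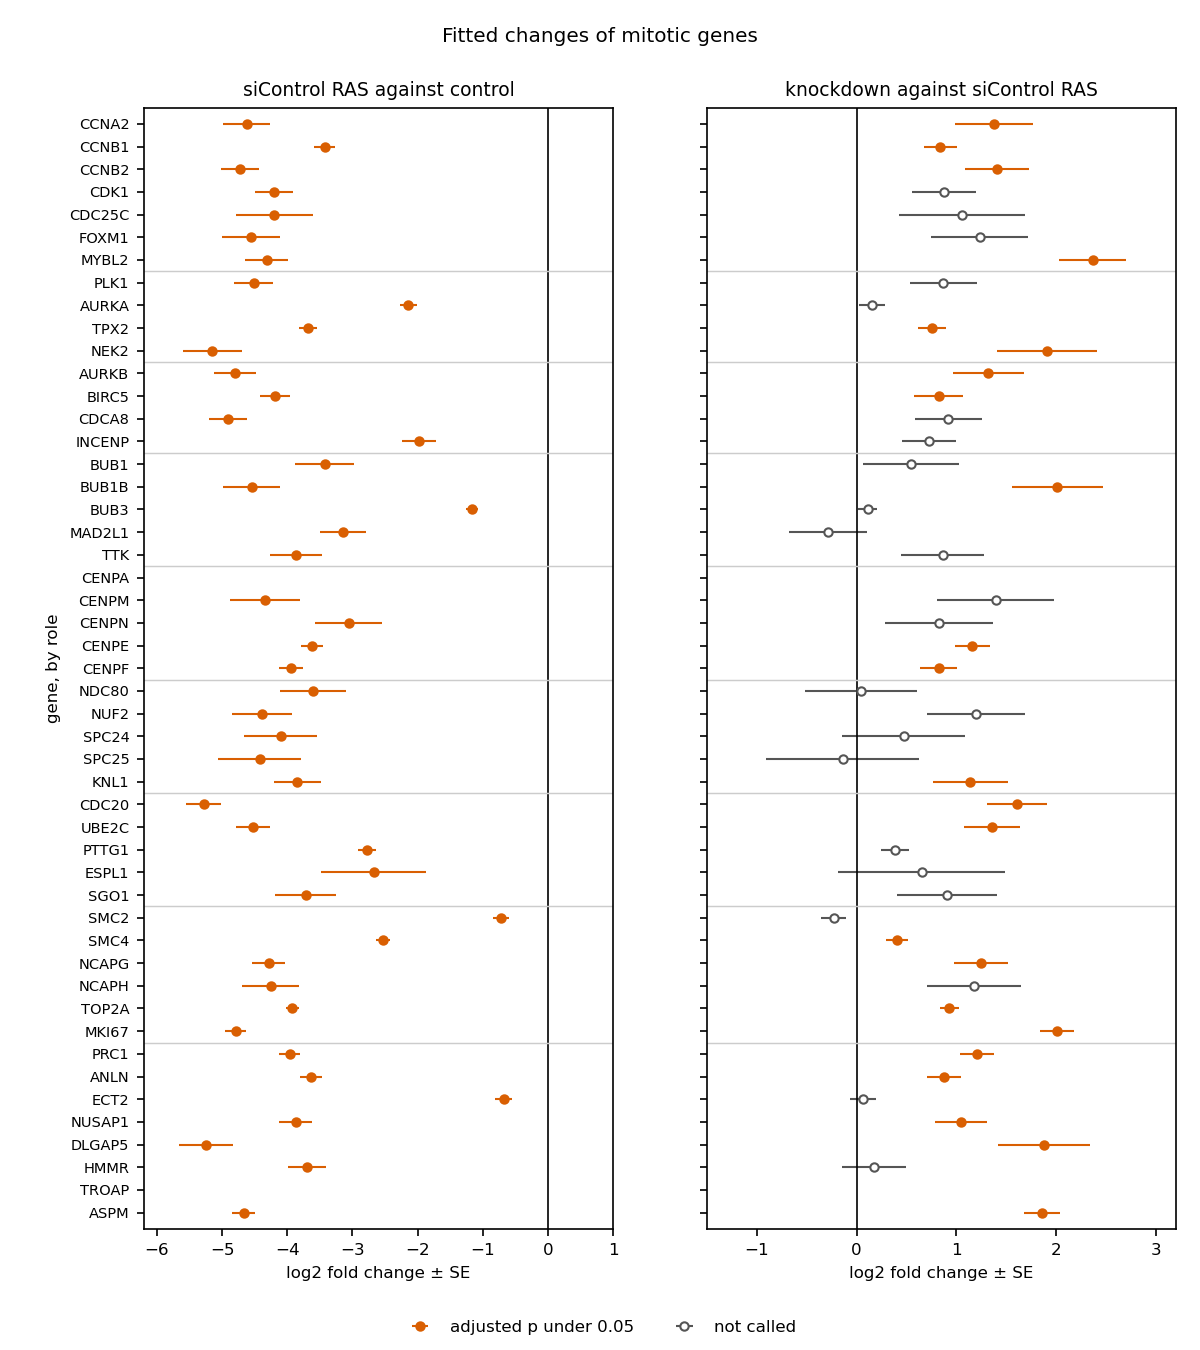
Fitted log2 fold change ± SE of the genes in role order for siControl RAS against control (left) and knockdown against siControl RAS (right), filled where the edgeR adjusted p was under 0.05; CENPA and TROAP have no point because their siControl RAS libraries held 1 and 0 counts. All points on the left lie below 0, nearest to it ECT2, SMC2 and BUB3, and on the right the filled points lie above 0 with AURKA, BUB3, SMC2, NDC80 and ECT2 close to it.

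Of the 24 genes not called for the knockdown, 21 had a fitted change above 0, and in 9 the 95% interval lay wholly above 0. By total counts over the 6 libraries, in bins set after the data were seen, 3 of 12 genes under 100 counts, 10 of 19 from 100 to under 300, 9 of 10 from 300 to under 1000 and 3 of 8 with at least 1000 were called. The shares of all tested genes called in the same bins are not given, so these counts have no baseline by depth. The 5 uncalled genes with at least 1000 counts were AURKA, BUB3, PTTG1, SMC2 and ECT2, of which PTTG1 just missed the call. The upper bounds of their 95% intervals were 0.45, 0.33, 0.69, 0.05 and 0.36, all below the median change of the 49 genes. AURKA, BUB3, SMC2 and ECT2 were also among the 5 genes with the smallest falls under RAS; the 2 comparisons share the siControl RAS libraries. Genes with TTTGAA in the window had a median RAS change of -3.96 (27 genes) and those without it -4.15 (12 genes). For the knockdown the medians were 0.88 with 14 of 27 called and 1.11 with 6 of 12 called.

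With either form of METTL14 the mean summed level of the 49 genes was nearer to that of knockdown than of siControl RAS cells. The summed level was 760 to 839 CPM in R298P libraries, 841 to 853 CPM in wild-type libraries, 911 to 930 CPM in knockdown libraries and 582 to 614 CPM in siControl RAS libraries. Relative to the knockdown, PRC1 was the 1 gene called lower with R298P and CCNB1 the 1 called lower with wild-type METTL14, and none was called higher. Among all tested genes, 0.555% were called lower and 0.540% higher with R298P, and 0.296% lower and 0.326% higher with wild-type METTL14. The median changes from the knockdown were -0.26 with R298P and -0.14 with wild type, with 40 and 30 of the 49 genes below 0. Over all tested genes the medians were 0.0037 and 4e-04. Of the 49 genes, 10 with R298P and 5 with wild type had an unadjusted p under 0.05. Here and below, no share of all tested genes stands beside counts by unadjusted p. Both comparisons share the knockdown libraries.

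CCNB1 had 18.4, 14.7 and 13.99 CPM in R298P libraries and 16.2, 11.2 and 13.9 CPM in wild-type libraries, against 22.6, 22.4 and 24.5 CPM in knockdown libraries. Every add-back library of either kind lay below every knockdown library, and the change was -0.55 ± 0.16 with R298P (edgeR adjusted p = 0.106) and -0.76 ± 0.17 with wild type (edgeR adjusted p = 0.0154). The wild-type call of CCNB1 ended without wild-type replicate 2 (-0.62) or 3 (-0.77) or knockdown replicate 3 (-0.72), and CENPE (-0.56 with all libraries) was called lower without knockdown replicate 1 (-0.72, edgeR adjusted p = 0.0291). PRC1 had 17.02, 16.2 and 13.6 CPM in R298P libraries and 21.4, 24.1 and 20.7 CPM in wild-type libraries, against 26.6, 21.8 and 24.8 CPM in knockdown libraries. All R298P libraries lay below the other 2 groups, and the change was -0.63 ± 0.16 with R298P (edgeR adjusted p = 0.04) and -0.14 ± 0.16 with wild type. The R298P call of PRC1 ended without any 1 of the R298P libraries (-0.70 to -0.55) or without knockdown replicate 1 (-0.57) or 3 (-0.62). MKI67 had 24.3, 29.1 and 35.3 CPM in R298P libraries and 33.8, 38.9 and 29.7 CPM in wild-type libraries, with changes of -0.48 ± 0.15 and -0.26 ± 0.15 from the knockdown that were not called. MYBL2 was likewise not called, with 10.5, 10.1 and 11.6 CPM in R298P libraries and 12.5, 8.68 and 22.4 CPM in wild-type libraries, and BUB1B had 3.18, 7.496 and 2.03 CPM and 4.45, 2.99 and 2.82 CPM. Between the 2 forms of METTL14 none of the 49 genes was called, where 0.00740% of all tested genes were called higher and 0.0148% lower with R298P. PRC1 again had the smallest p of the 49 genes in that comparison, -0.50 ± 0.16 (unadjusted p = 0.00425, edgeR adjusted p = 0.762), and 3 genes had an unadjusted p under 0.05. DESeq2 and limma-voom called none of the 49.

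**Figure D5:**
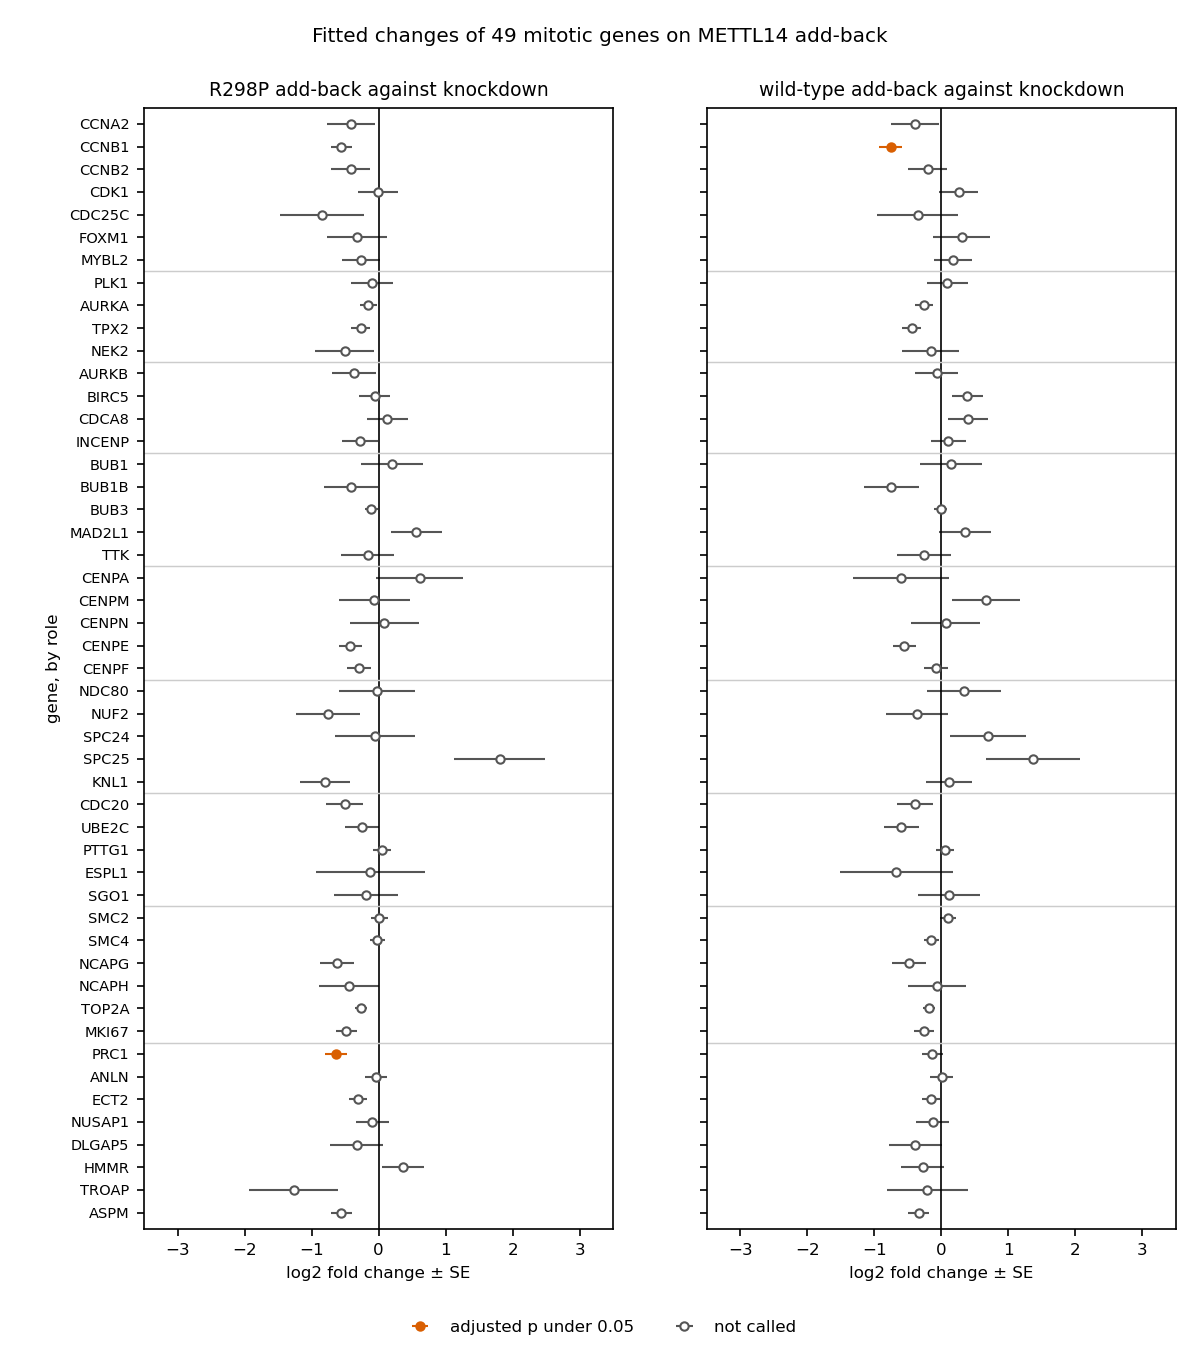
Fitted log2 fold change ± SE of the 49 genes in role order for R298P (left) and wild-type METTL14 (right) against the knockdown, filled where the edgeR adjusted p was under 0.05. The filled points are PRC1 on the left and CCNB1 on the right, and most open points lie slightly below 0 with errors that cross it.

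Against siControl RAS cells, 20 genes were higher with R298P and 24 with wild-type METTL14, and none was lower. Among all tested genes 6.27% were called higher and 7.14% lower with R298P, and 6.32% and 6.67% with wild type. The median changes were 0.74 with R298P and 0.92 with wild type. Leaving out 1 library gave 13 to 16 genes called higher with R298P, with 13 without siControl RAS replicate 2, and 16 to 18 with wild type; 6 and 8 calls held in every alternative tried. Higher than siControl RAS in all of the R298P, wild-type and knockdown groups were 14 genes, in comparisons that share the siControl RAS libraries: CCNB2, MYBL2, BIRC5, CENPA, CENPE, CDC20, TOP2A, MKI67, PRC1, ANLN, NUSAP1, DLGAP5, TROAP and ASPM. CENPA held 32 counts in R298P, 13 in wild-type and 1 in siControl RAS libraries, and TROAP 15, 34 and 0. As said above, CENPA was tested because of its control level. CDK1, FOXM1, INCENP and CENPM, not called for the knockdown, were called higher than siControl RAS with wild-type METTL14, and CDCA8 and PTTG1 with both forms. Genes called in none of the 3 comparisons numbered 18, among them PLK1, AURKA, BUB3, MAD2L1, SMC2 and ECT2. No matching counts over all tested genes are given beside the 14 or the 18. The median gene had 10.5% of its control level in R298P cells and 11.1% in wild-type cells.

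Other genes of the same processes were taken from lists drawn up by role. Beside the counts that follow stand the shares of all tested genes, 24.0% called higher and 21.9% lower for RAS and 7.47% higher and 8.06% lower for the knockdown; no list was tested against another or against all genes. Of 32 other kinetochore and centromere genes, 26 fell with RAS and 6 rose with the knockdown, among them CENPU (1.49 ± 0.30), SKA3 (1.34 ± 0.40) and the CENPA chaperone HJURP (1.30 ± 0.27), while the spindly gene SPDL1 fell (-0.49 ± 0.12). The median log2 changes were -1.35 and 0.23. With R298P, CENPU and HJURP fell against the knockdown (-1.25 ± 0.29 and -1.05 ± 0.26), and with wild type no gene of the list was called in edgeR, where 2 had an unadjusted p under 0.05. Of 34 tested G2 and M phase genes outside the 49, 32 fell with RAS and 6 rose with the knockdown, among them CEP55 (1.36 ± 0.26), CDKN3 (1.34 ± 0.47) and DEPDC1 (1.07 ± 0.36), with medians of -2.92 and 0.44. Of 14 tested core subunits of the anaphase-promoting complex, 7 fell and none rose with RAS (median -0.34), and CDC16 (0.46 ± 0.11) and ANAPC11 (0.39 ± 0.12) rose with the knockdown.

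Of 12 genes of cohesin, the ring that holds sister chromatids, and its regulators, 5 were called higher and 4 lower for RAS, and 2 higher and 3 lower for the knockdown. All 4 further condensin subunits fell with RAS (median -1.66) and their fitted changes for the knockdown, 0.20 to 0.81, were not called in edgeR. Of 14 genes of the MuvB, DREAM and RB group, 4 rose and 5 fell with RAS. For the knockdown MYBL1, the A-MYB relative of B-MYB, rose (1.02 ± 0.14), and TFDP2, the dimer partner of E2F (-0.69 ± 0.15), and CDKN1A, the CDK inhibitor p21 (-0.36 ± 0.06), fell.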

How the data were processed

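The deposited table holds 1 count per Ensembl gene for 57736 genes and 15 libraries, which the authors did not normalise; all counts are whole numbers. Bowtie2, RSEM 1.2.12 and hg19 are named without a role, per the submitters' processing notes. Because RSEM can give fractional estimates, rounding before deposit is possible. For the annotation, the filters and the use of strand, nothing is given in the sources used here, so antisense reads cannot be told apart. Library preparation used the Lexogen QuantSeq kit, which reads transcript 3′ ends, so isoforms with a shared end are not told apart and counts do not grow with length.

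Counts were fitted in 1 model of 5 group means in edgeR 4.0.16 (R 4.3.3) with filterByExpr, TMM and the quasi-likelihood F test (robust option, two-sided), with Benjamini-Hochberg adjustment over 13516 genes; the scripts were tested on simulated data. Standard errors are the log2 fold change over the root of F. Libraries held 4917661 to 7763084 counts, and members with few counts have wide intervals. All 49 genes passed the filter with 15 libraries, and 47 with the 12 RAS libraries alone (not CENPA and SPC25). With the 6 siControl RAS and knockdown libraries alone 43 passed (not NEK2, CENPA, CENPM, SPC24, SPC25 and ESPL1). The control libraries therefore carried some genes past the filter. Replicate numbers were treated as unpaired: over 30 pairs with the same number, deviations from group means correlated at -0.0541 to 0.0681. No 2 libraries of a group were copies of each other (chi-square per degree of freedom 3.52 to 8.47). Symbols came from the reference tables by Ensembl ID, and promoter windows from RefSeq GRCh38.p14, a build other than that of the counts.

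Members and gene lists were chosen with earlier results of these data known. All 49 members are named by role; values per library are given for the called member with the largest change in each role, for 10 genes named whether called or not, and for members whose call differs from their role. From other lists at most 3 called genes with the largest change are named. Alternatives were DESeq2 1.42.0, limma-voom (limma 3.58.1), upper-quartile factors, no filter, only the 2 groups compared, a replicate block and leaving out each library. With 3 libraries a group the smallest p of an exact permutation test is 0.1, so none was used.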

Additional observations from a re-analysis of the deposited data

How the results depend on the processing

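All 49 falls under RAS were called in every alternative, as were 17 of the 25 rises with the knockdown and 48 of the 49 differences between knockdown and control. The count of genes higher with the knockdown was 27 with DESeq2, 20 with limma-voom, 28 with upper-quartile factors, 30 with no filter, 19 with only the 2 groups compared and 23 to 26 with 1 library left out. The count lower was 0 in these, and 0 to 1 with 1 library left out. For wild-type METTL14 against the knockdown the count lower was 0 with limma-voom and with only the 2 groups compared, and 0 to 2 with 1 library left out. For R298P against the knockdown it was 2 with no filter, 0 with limma-voom and with only the 2 groups compared, and 0 to 1 with 1 library left out. Against siControl RAS, limma-voom called 13 genes higher with wild type and 9 with R298P, only the 2 groups compared gave 9 and 9, and leaving out 1 library gave 16 to 18 and 13 to 16. The cause of these differences was not tested. No gene was called higher than the knockdown or lower than siControl RAS with either add-back, also in DESeq2 and limma-voom. Counts over all genes are given here for only some of the alternatives. Over all genes, the knockdown against siControl RAS gave 2100 calls in either direction, and 1671 to 1876 with 1 library left out. Against siControl RAS, wild type gave 1755, and 1341 to 1494, and R298P gave 1813, and 1265 to 1498. R298P against the knockdown gave 225 calls with DESeq2, against 148, and 90 to 142 with 1 library left out. Wild type against the knockdown gave 84, and 54 to 71. Between the add-backs, 3 genes were called, against 14 with no filter, 12 with DESeq2, 5 with limma-voom, 5 with only the 2 groups compared and 1 to 2 with 1 library left out. With the replicate block, 27 genes were called higher for the knockdown, 21 for R298P and 23 for wild type against siControl RAS; the numbers share no documented source, and 5 of 15 libraries were closest to their own number. Upper-quartile factors moved the median of all genes by at most 0.04. At 1 count per 0.136 to 0.203 CPM, depth limits CENPA, TROAP, SPC24, SPC25 and ESPL1 most.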
